A study of Mus musculus with 12 samples.

Results

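The Ly6 genes encode small proteins that are held on the outer face of the cell membrane by a glycosylphosphatidylinositol (GPI) anchor. Of the 28793 genes in the expression table, 5 are described here, chosen by symbol with their values in these libraries already known. Ly6a encodes Sca-1, an antigen used to mark blood stem cells and also crypt epithelium that is regenerating after injury. Ly6c1 encodes a form of Ly6C, an antigen of monocytes, lymphocytes and endothelium. Ly6g encodes the antigen by which mouse neutrophils are sorted. Ly6e encodes a broadly expressed member known for its effects on virus entry. Ly6d encodes an antigen of early B cells and of squamous epithelium.

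RNA was sequenced from crypts of the large intestine, in C57BL/6 mice of 3 months of age that differed in Tert, the gene for the reverse transcriptase of telomerase. The sorted set consisted of GFP-sorted crypt cells labelled stem/progenitor, or CBC in the series' design text, with 3 libraries from Tert heterozygotes and 3 from null mice of Generation3 (null G3). The unsorted set consisted of crypt epithelial cells (called crypts here), with 2 libraries from heterozygotes, 2 from null mice of Generation4 (null G4) and 2 of the same generation labelled telomerase-reactivated. The sources used here do not give the part of Tert that was removed, the promoter that drove GFP or the agent of reactivation, beyond the letters tam in the description of the reactivated libraries. The heterozygous libraries are also labelled G0, and no library is from wild-type mice. The series' title asks what telomere dysfunction does to YAP1, a transcriptional co-activator, and to inflammation. No animals are named for the libraries, which the labels call biological replicates, so p-values rest on a spread between libraries that may be technical only. The exceptions are null G3 sorted cells and reactivated crypts, where libraries differ in sex (below), so not all came from the same animals.

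Tert was read first as a check of the labels. It was listed at RPKM 0.459 and 0.251 in the heterozygous crypts and at 0.00778 and 0.0377 in the null G4 crypts. The crypt libraries labelled reactivated held 0.0171 and 0.0311, within the range of the null G4 libraries and not that of the heterozygous ones, and are called reactivated after their label alone. In sorted cells Tert lay between 0.0424 and 0.169 in heterozygous libraries and at 0, 0.0787 and 0.00131 in null G3 libraries. RPKM is the number of reads per kilobase of gene, scaled to the size of the library.

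Some facts of the libraries bear on every value that follows. The number of genes at RPKM 1 or more was 10633 to 11162 in crypts and 7721 to 9144 in sorted cells, except for 5424 in sorted null G3 replicate 1. In that library the summed RPKM of 6 crypt base columnar markers was 3.72, against 34.6 to 57.3 in the other sorted libraries, and Ly6 results of sorted cells are given with and without it. The sum of Y-linked genes was 18.3 and 18.9 in the heterozygous crypts and 18.2 in reactivated replicate 2, and at most 0.0148 in the other crypt libraries. The heterozygous crypts thus came from males and the null G4 crypts from females, so sex and genotype cannot be told apart in that pair. Libraries labelled reactivated include 1 of each sex. Of the sorted libraries, null G3 replicate 2 had a Y-linked sum of 8.54 and the other 5 at most 0.0562. Mitochondrial ribosomal RNA made up 19.2% and 27.3% of summed RPKM in heterozygous and 10.8% to 16.7% in generation 4 crypts, and 38.7% to 53.6% in heterozygous and 46.8% to 71.9% in null G3 sorted cells. The part of this share in the Ly6 values was not tested. Sorted and crypt values appear to have been normalized separately, so levels across them are set side by side with no test. In bulk RNA, fewer cells of a type and less RNA per cell cannot be told apart.

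The 5 genes lie on chromosome 15 (GRCm38, GENCODE M21), all in 1 cluster with other relatives. Ly6d is at chr15:74762056-74763620 on the minus strand, and Ly6e is at chr15:74955051-74959905 on the plus strand. Ly6a is at chr15:74994877-74998031 and Ly6c1 at chr15:75044018-75048830, both on the minus strand. Ly6g is at chr15:75155240-75159126 on the plus strand. The coding sequences of the annotated transcripts show how near the copies are. The first 90 coding bases are printed for Ly6c1, Ly6c2, Ly6a and Ly6g, with capitals for each base that differs from Ly6c1.
Ly6c1: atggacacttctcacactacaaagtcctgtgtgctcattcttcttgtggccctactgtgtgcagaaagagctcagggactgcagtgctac
Ly6c2: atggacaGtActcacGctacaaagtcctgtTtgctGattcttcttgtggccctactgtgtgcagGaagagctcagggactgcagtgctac
Ly6a: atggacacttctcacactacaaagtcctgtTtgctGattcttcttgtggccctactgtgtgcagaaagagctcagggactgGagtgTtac
Ly6g: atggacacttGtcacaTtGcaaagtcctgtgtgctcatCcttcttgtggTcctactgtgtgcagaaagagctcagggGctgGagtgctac
In this stretch 4 bases of Ly6a, 6 of Ly6c2 and 7 of Ly6g differed from Ly6c1. Over whole coding sequences, 97.7% of alignment positions, gaps included, were identical between Ly6c1 and Ly6c2. The share was 81.8% between Ly6a and Ly6c1, and 83.1% between Ly6a and Ly6g. Ly6i and Ly6f, which are not printed, were nearer to Ly6a, at 86.3% and 84.6%. Ly6e and Ly6d were far less alike, at 52.3% and 47.4% of positions in their alignments with Ly6a.

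The share of a gene's transcript that also occurs elsewhere shows whose reads could be split. Of all 50-base windows of annotated transcripts, 19.0% of those of Ly6a occurred in another gene, 15.0% in Ly6c1. For Ly6c1 the share was 32.8%, of which 21.5% of windows occurred in Ly6c2 and 11.1% in Ly6a. For Ly6g it was 0.448%, and no window of Ly6e or Ly6d was shared. The sources used here do not give the read length or the treatment of reads with several matches, so values of Ly6c1, and to a lesser degree Ly6a, are uncertain by reads that could belong to either.

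Ly6a was the most abundant of the 5 in the crypts of Tert-null mice. It was at RPKM 13.8 and 15.6 in heterozygous crypts, 171 and 194 in null G4 crypts, and 156 and 141 in crypts labelled reactivated. The 4 generation 4 libraries were all far above the heterozygous pair, which was male, with the male reactivated library at 141. The part of sex in this difference was not tested. The means were 14.7 ± 1.25, 182 ± 15.9 and 148 ± 11.1 (SD, n = 2 each), and the ratio of null G4 to heterozygous was 12.4. On the scale of log2(RPKM + 1) the difference was 3.55, the 11th highest of 11464 genes tested, where the median of all genes was 0.36. These values, and those in sorted cells, were known when the genes were chosen, so no p-value is given for a member in any comparison.

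Ly6c1 was nearly absent in heterozygous crypts and clearly expressed in the others. It was listed at 0.225 and 0.158 in heterozygous crypts, 9.50 and 11.7 in null G4 crypts, and 8.78 and 9.19 in reactivated crypts. The 2 heterozygous libraries were below all 4 others. By the exon length in the annotation and the depth implied by the RPKM steps, the heterozygous values stand for about 33.0 and 23.3 reads, and the others for 1195 to 1981. The ratio of mean RPKM was 55.6 in null G4 crypts and 47.0 in reactivated crypts, with log2 differences of 3.28 and 3.07. With a pseudocount of 0.1 in place of 1 they were 5.20 and 4.97. Ly6c1 amounted to 1.63% and 1.01% of the Ly6a level in heterozygous crypts, 5.55% and 6.06% in null G4 crypts, and 5.62% and 6.53% in reactivated crypts. The percentage was higher in all 4 generation 4 libraries than in either heterozygous one. The heterozygous percentages rest on the about 33.0 and 23.3 reads given above. The part of reads shared with Ly6a in the Ly6c1 values was not tested.

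Ly6g was more uneven between libraries of a group. It was at 1.63 and 0.675 in heterozygous crypts, 13.1 and 15.3 in null G4 crypts, and 9.29 and 28.2 in reactivated crypts. Both null G4 values lay between those of the reactivated pair, and all 4 were above the heterozygous libraries. The log2 difference from heterozygous crypts was 2.85 in null G4 crypts and 3.05 in reactivated crypts, and 2.29 in the latter without reactivated replicate 2. With sex as a term in the fit, which only the reactivated pair can estimate, the null G4 value was 4.36.

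Ly6e was expressed in every library and differed least between crypt groups among the 4 members above the filter on low values. It was at 32.8 and 33.4 in heterozygous crypts, 62.6 and 74.9 in null G4 crypts, and 70.7 and 59.8 in reactivated crypts. All 4 generation 4 libraries were above the heterozygous pair. The log2 difference was 1.03 in null G4 crypts and 0.95 in reactivated crypts, and ranked 334th and 191st of 11464 genes. In null G4 it was 0.46 with quantile normalization and 0.67 with median scaling, which remove the shift of all genes.

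Ly6d was barely detected. Its values of 0.0165 and 0.0655 in heterozygous crypts, 0.193 and 0.360 in null G4 crypts, and 0.127 and 0.0701 in reactivated crypts correspond to 1 and 4, 10 and 25, and 9 and 5 whole reads. No fold is given at this depth.

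**Figure D1:**
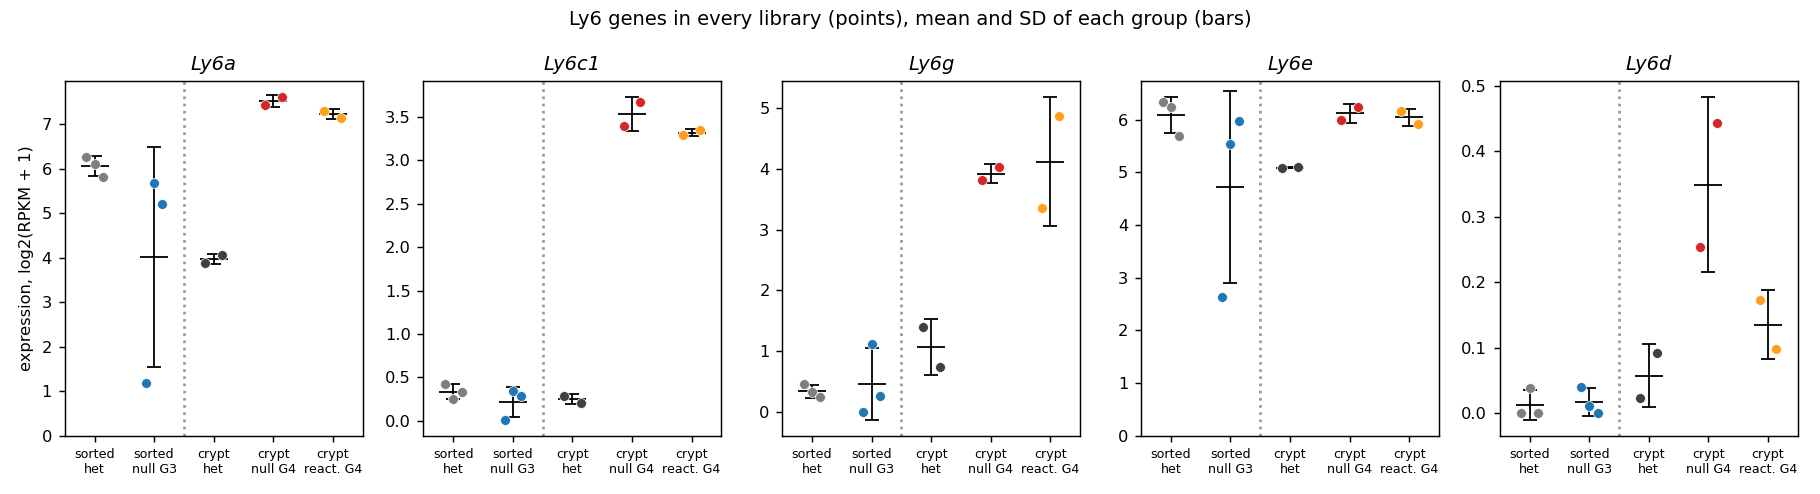
Expression of the 5 Ly6 genes in all 12 libraries, as log2(RPKM + 1) on the vertical axis of each panel, by group on the horizontal axis (het, heterozygous; react., labelled reactivated). Points are libraries and bars are the group's mean and SD; Ly6a is at RPKM 141 or more in the 4 generation 4 crypt libraries and at most 15.6 in heterozygous crypts.

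Of the 5 members 4 passed the filter on low values in crypts (RPKM 1 or more in at least 2 libraries), all but Ly6d. For Ly6c1 this was through the generation 4 libraries alone. Ly6g reached RPKM 1 in only 1 heterozygous library, so it too passed only because of the generation 4 libraries. In null G4 against heterozygous crypts, limma with Benjamini-Hochberg adjustment called 4 of these 4 higher, where 4.97% of all genes tested were called higher and 0.576% lower. The groups did not overlap for the same 4, where they did not for 74.7% of all genes, in the same direction. In reactivated against heterozygous crypts 3 of 4 were called higher, all but Ly6e (all genes, 1.13% higher and 0.148% lower), and 4 of 4 did not overlap (all genes, 46.7%). Under quantile normalization or median scaling the calls numbered 2 in each comparison, Ly6a and Ly6c1, and with a sex term 3 in each, Ly6a, Ly6c1 and Ly6g. The 2 comparisons share the heterozygous libraries, and since the members were chosen on these values, nothing is read from these counts.

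The comparison of reactivated with null G4 crypts is a description of where the Ly6 levels lay. None of the 4 members that passed the filter was called in either direction, where 0.0174% of genes were called higher and 0.00872% lower. Nothing is read from this count either, since the members were chosen with these values known. Ly6c1 and Ly6g also passed the filter only through the generation 4 libraries. The log2 difference was -0.30 for Ly6a, -0.21 for Ly6c1, 0.19 for Ly6g and -0.07 for Ly6e, against a median of -0.14 over all genes. Both reactivated libraries were below both null G4 libraries for Ly6a and Ly6c1, as for 25.5% of all genes. With either scaling the Ly6e difference changed sign (0.09 and 0.07). The Ly6g difference was -0.56 without reactivated replicate 2 and 0.95 without replicate 1, so 1 library set its sign.

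In sorted cells the pattern of the 5 genes was another one. Ly6a was already high in heterozygous sorted cells, at 76.0, 67.2 and 55.2, and in null G3 cells it was at 1.26, 49.8 and 36.0. All 3 null G3 libraries were below all 3 heterozygous ones, replicate 1 by far the lowest. The log2 difference was -2.04, against a median of -0.46 over all genes tested. Without null G3 replicate 1 the Ly6a difference was -0.62. Ly6e was at 79.5, 74.4 and 50.7 in heterozygous and 5.21, 45.6 and 62.3 in null G3 cells, with overlapping groups. Its difference was -1.37, and -0.32 without that library.

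Of all genes tested in sorted cells limma called 0% in either direction at this threshold, and 143 of 8734 had an unadjusted p under 0.05. Non-overlap downwards, seen for 1 of the 2 members tested, held for 12.6% of genes, and for 14.9% without null G3 replicate 1. The other 3 members did not pass the filter. Ly6c1 was at 0.343, 0.187 and 0.264 in heterozygous and 0.0105, 0.272 and 0.219 in null G3 sorted cells. Ly6g was at 0.373, 0.253 and 0.188, and at 0, 1.17 and 0.202. Ly6d was at most 0.0286 in any sorted library. The high Ly6c1 and Ly6g levels of null G4 crypts were thus not seen in null G3 sorted cells, which differ from those crypts in generation, cell selection and normalization together.

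Ratios within a library do not depend on a scaling factor that is the same for all its genes. Ly6a divided by Ly6e was 0.957, 0.903 and 1.09 in sorted heterozygous cells, and 0.241, 1.09 and 0.577 in sorted null G3 cells. In heterozygous crypts the ratio was lower, at 0.420 and 0.467. In null G4 crypts it was 2.74 and 2.59, and in reactivated crypts 2.21 and 2.35, so Ly6a was below Ly6e in the heterozygous pair and above it in the other 4. Divided by Epcam, a surface protein of all intestinal epithelium, Ly6a was 0.0653 and 0.0562 in heterozygous crypts, 0.248 to 0.283 in heterozygous sorted cells, 0.506 and 0.468 in null G4 crypts and 0.418 and 0.416 in reactivated crypts. The order from heterozygous crypts through heterozygous sorted cells to reactivated and null G4 crypts was the same for both denominators, with no overlap between neighbouring groups. Any difference in processing between sorted and crypt values that varies by gene would remain in these ratios, so the place of sorted cells in this order is uncertain. The sorted null G3 library of replicate 1 was below all heterozygous crypts on both denominators (0.00935 on Epcam), and the other 2 were above the heterozygous and below the generation 4 crypts.

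**Figure D2:**
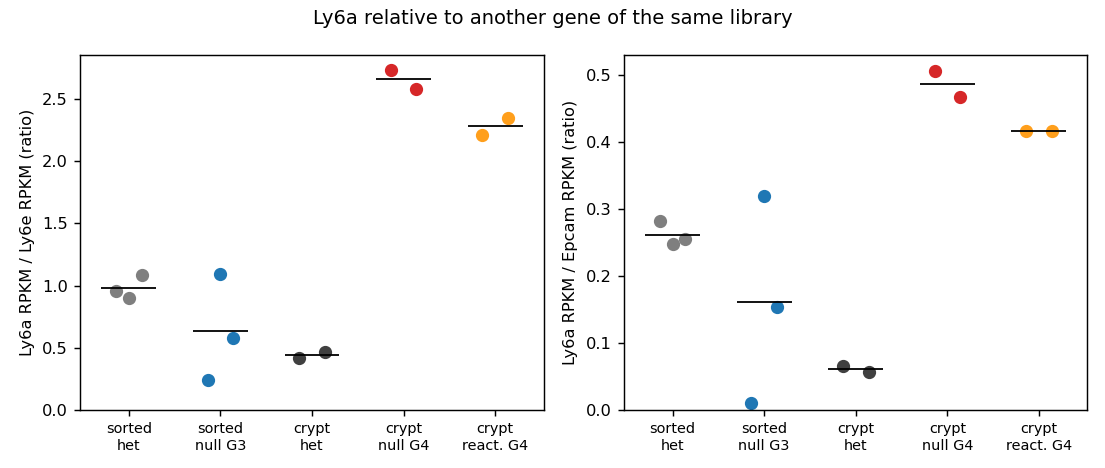
RPKM of Ly6a divided by that of Ly6e (left) and of Epcam (right) in each library, by group. Points are libraries and lines are group means; the null G4 crypts, at 2.74 and 2.59 on the left, are highest and the heterozygous crypts lie at 0.420 and 0.467.

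The rest of the Ly6 and urokinase receptor family was read from a list of relatives, of which 33 besides the 5 members are in the table. In null G4 against heterozygous crypts 9 of them were tested, 1 rose and none fell, with a median difference of 0.17 against 0.36 for all genes. The one that rose was BC025446, also named Ly6g2, which sits beyond Ly6g in the cluster. It was at RPKM 1.11 and 1.34 in heterozygous crypts, 3.90 and 4.66 in null G4 crypts and 3.21 and 4.27 in reactivated crypts. Its differences were 1.24 in null G4 (limma, adjusted p = 0.0066) and 1.08 in reactivated crypts (adjusted p = 0.020), with no overlap of groups. With quantile normalization or median scaling the null G4 call was lost, at 1.01 and 0.88, and it was also lost with no filter. The reactivated call was lost under both scalings too (0.98 and 0.87), with no filter, and without heterozygous replicate 1 (1.01). In sorted null G3 replicate 1, where Ly6a was lowest, BC025446 was at 5.08, against at most 0.182 in the other sorted libraries.

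The highest relative was Lypd8, which encodes a GPI-anchored protein, shed into the gut lumen, that keeps flagellated bacteria away from the colonic epithelium. It was at 387 and 881 in heterozygous crypts, 1089 and 1298 in null G4 crypts and 923 and 1494 in reactivated crypts. The difference in null G4 of 1.02 did not pass (limma, adjusted p = 0.099). Without heterozygous replicate 1 it was 0.43, and without replicate 2 it was 1.62 and passed. Ly6g6e, with 0.53, did not pass either (adjusted p = 0.058). The differences of Lynx1, a modulator of acetylcholine receptors, Plaur, the urokinase receptor, Spaca4, 9030619P08Rik and 2010109I03Rik lay between -0.29 and 0.23 and none passed.

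By position the cluster was a patchwork. Of 26 genes from Psca to Gpihbp1, 9 reached RPKM 1 in at least 1 crypt library. Ly6a, Ly6c1, Ly6g and BC025446 had the highest differences. Ly6c2, the near copy of Ly6c1 that lies between Ly6c1 and Ly6g, was at most 0.117 in every library, and Ly6i, between Ly6e and Ly6a, at most 0.0445. Beyond BC025446, Ly6f was at most 0.0779. Ly6c1 and Ly6c2 share windows, so their split could be set in part by how the counting treated shared reads.

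**Figure D3:**
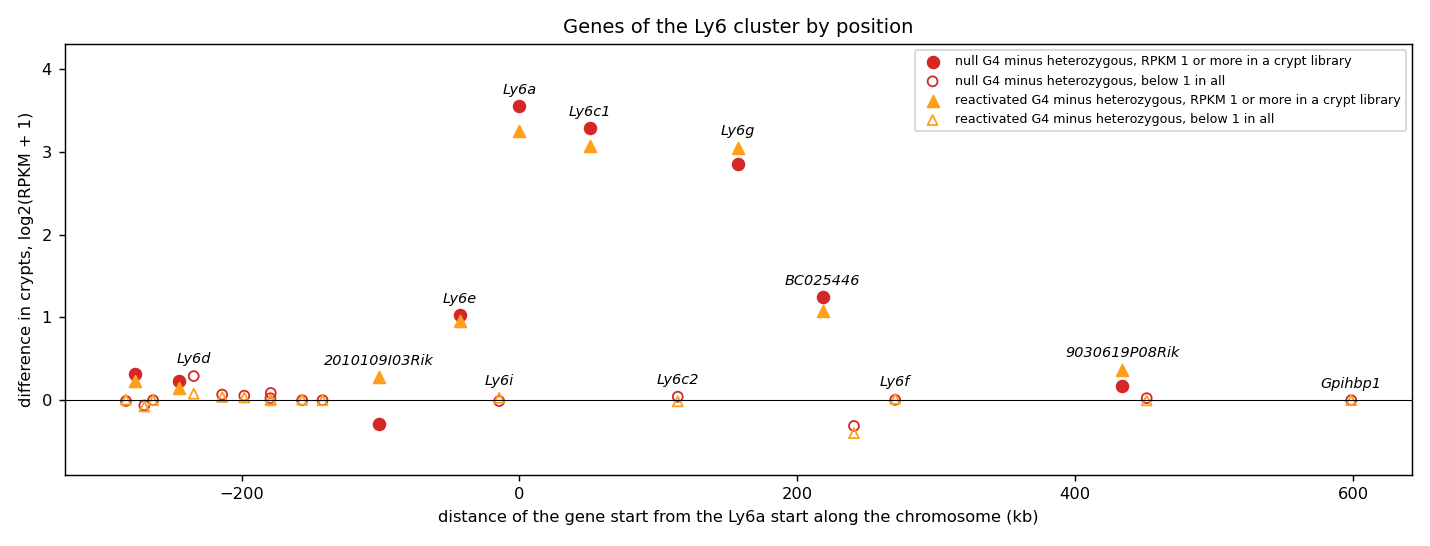
Differences from heterozygous crypts on the log2(RPKM + 1) scale for genes around Ly6a, by distance of each gene's start from the Ly6a start in kb. Circles are null G4 and triangles reactivated crypts, filled where a crypt library reached RPKM 1; the 3 highest are Ly6a, Ly6c1 and Ly6g, and Ly6c2 and Ly6i, at most 0.117, lie near 0.

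Since Ly6c1 and Ly6g were high in generation 4 crypts while Ly6c2 was not, the sequence upstream of these 3 genes is shown, from RefSeq on GRCm38.p6. Capitals mark the motifs TATAAA and CCAAT, searched on both strands, which do not overlap each other. The RefSeq promoter table used here has no entry for Ly6a, Ly6e or Ly6d. The printed runs are chr15:75048921-75049087 (minus strand) for Ly6c1, chr15:75155033-75155238 (plus strand) for Ly6g and chr15:75112071-75112213 (minus strand) for Ly6c2.
Ly6c1: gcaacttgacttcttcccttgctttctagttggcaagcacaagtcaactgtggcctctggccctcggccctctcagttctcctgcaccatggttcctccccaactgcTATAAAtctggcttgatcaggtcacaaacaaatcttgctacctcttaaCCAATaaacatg
Ly6g: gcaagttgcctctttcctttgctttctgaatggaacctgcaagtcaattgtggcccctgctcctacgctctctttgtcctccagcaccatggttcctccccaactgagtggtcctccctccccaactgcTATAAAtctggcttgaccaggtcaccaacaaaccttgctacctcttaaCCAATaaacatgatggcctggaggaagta
Ly6c2: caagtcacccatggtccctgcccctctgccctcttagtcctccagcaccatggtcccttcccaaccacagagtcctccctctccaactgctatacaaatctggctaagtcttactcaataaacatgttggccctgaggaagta
Of aligned bases, 83.8% were identical between Ly6c1 and Ly6g, 80.4% between Ly6c2 and Ly6g, and 73.9% between Ly6c2 and Ly6c1. The runs of Ly6c1 and Ly6g hold both motifs and that of Ly6c2 holds neither. The other RefSeq window of Ly6c1, chr15:75048614-75048913, from which no run is printed, also holds neither. TATAAA occurs in 13.6% and CCAAT in 37.4% of the 32817 RefSeq windows of 300 bases, and Ly6f, at most 0.0779, has both. Cores of sites for STAT factors (TTCNNNGAA), interferon-regulated factors (GAAANNGAA) and TEAD factors (GGAATG) were not found in the windows of these 3 genes, and are held by 8.29%, 8.55% and 14.7% of all windows. These are matches of letters and say nothing of binding.

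Ly6 antigens also mark blood and vessel cells, so the markers of other cell types were read beside them. Of 12 neutrophil genes, none reached RPKM 1 in any library. Their summed RPKM was 0.178 and 0.192 in heterozygous crypts, 0.731 and 1.07 in null G4 crypts and 0.519 and 0.646 in reactivated crypts. The sum and Ly6g, which was at 9.29 to 28.2 in the generation 4 libraries, were both higher there than in heterozygous crypts. Within generation 4 the order differed, since the library with Ly6g at 28.2 had a sum of 0.646, below both null G4 sums. In heterozygous crypts the sum was mostly Camp, at 0.152 and 0.132, which was lower in generation 4 crypts, at 0.0323 to 0.0666. In generation 4 crypts the sum was made up mostly of Ltf, the iron-binding protein of neutrophil granules and of some epithelia, at up to 0.726. S100a8 was at most 0.153 in crypts and S100a9 at most 0.0953. The defining receptors Csf3r and Cxcr2 were at most 0.0185, and Elane was at 0 in all 6 crypt libraries.

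The lists of endothelial, squamous and B cells were low as well. Of 11 listed endothelial genes none reached RPKM 1, and their sum was 1.26 and 1.19 in heterozygous and 0.817 to 1.02 in generation 4 crypts, with Cdh5 at most 0.00334. Of 10 squamous genes none reached RPKM 1, and Trp63 was at 0 everywhere. The summed B cell list was at most 1.85. Of 14 T and NK genes the sum was 6.39 and 17.9 in heterozygous crypts, 8.78 and 8.30 in null G4 crypts and 7.98 and 3.21 in reactivated crypts, with overlap, and none of 4 tested passed. The fibroblast list summed to 2.71 and 3.27 in heterozygous crypts, 5.19 and 6.41 in null G4 crypts and 5.32 and 2.59 in reactivated crypts, and none of 2 tested passed.

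Of 13 monocyte and macrophage genes 3 were tested, of which 1 rose and 1 fell in null G4 crypts. The summed RPKM of the list was 14.6 and 16.4 in heterozygous crypts and 28.8 and 33.8 in null G4 crypts. In reactivated crypts the sum was 28.0 and 23.3, and the heterozygous pair was below all generation 4 libraries. In those libraries it was made up mostly of Cd14, the co-receptor for lipopolysaccharide, and the rest of the list did not rise with it. Cd14 went from 6.37 and 5.59 to 21.2 and 26.1, and was at 19.7 and 15.9 in reactivated crypts (null G4 difference 1.81, limma, adjusted p = 0.0027). C1qa, the complement subunit made by macrophages, went from 1.50 and 2.18 to 0.166 and 0.716 (difference -0.996, adjusted p = 0.0498). It reached RPKM 1 in the heterozygous libraries alone and so entered the test only through the group where it was high. The call was lost without either heterozygous library, without null G4 replicate 1, with a pseudocount of 0.1, with quantile normalization and with a sex term. The Cd14 call was lost with a sex term. The other C1q genes, C1qb and C1qc, went the opposite way to C1qa, at low levels. C1qb was at 0 and 0.104 in heterozygous crypts and 0.109 to 0.287 in generation 4 crypts. C1qc was at 0.00588 and 0.0468, and at 0.115 to 0.195. Csf1r, the receptor that defines the lineage, was at most 0.128. The crypt epithelium list, by contrast, summed to 1658 and 2201 in heterozygous and 2780 to 3417 in generation 4 crypts, and none of its 9 genes passed. The part of any of these cell types in the Ly6 values was not tested.

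**Figure D4:**
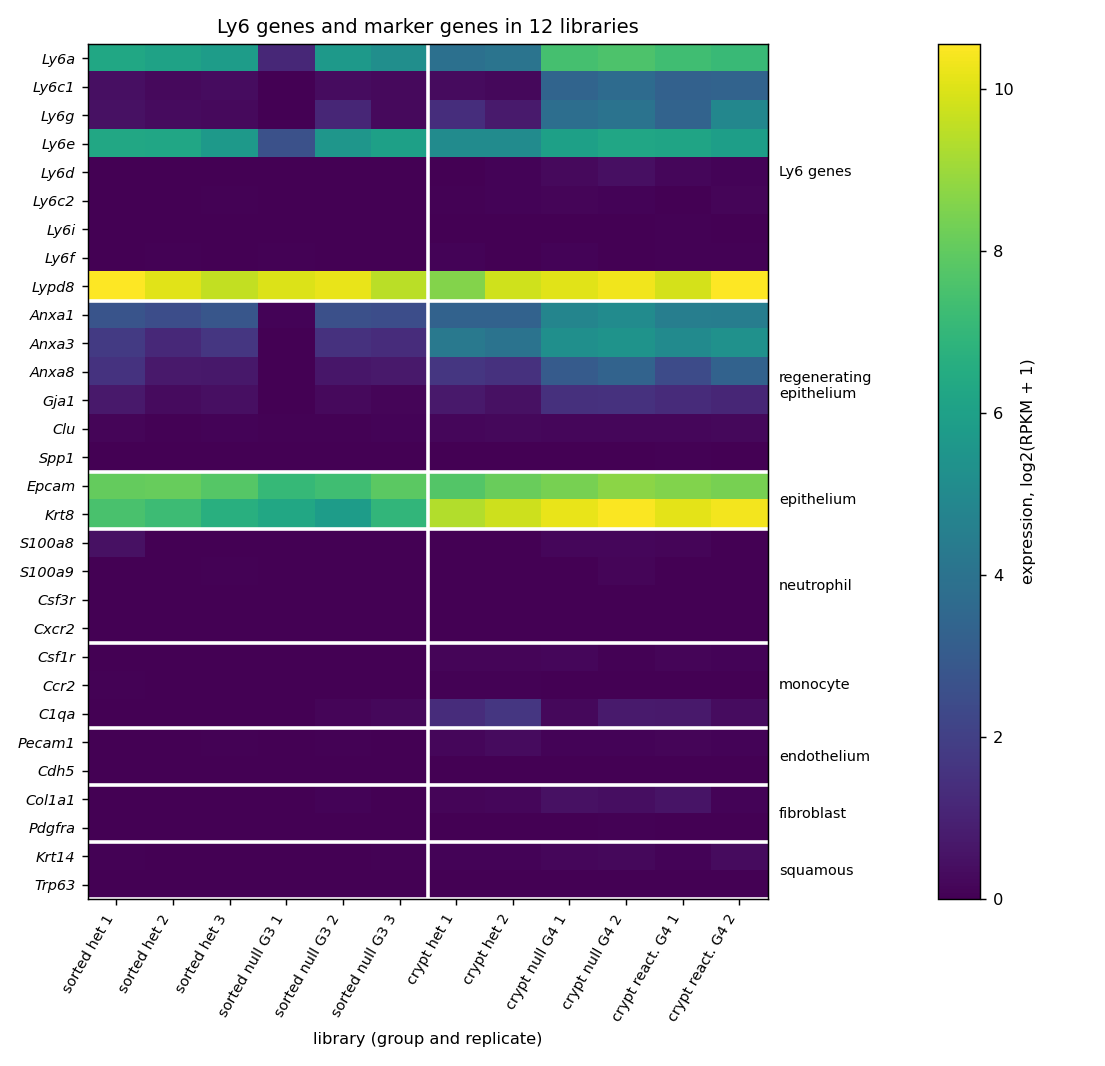
Ly6 genes and marker genes of several cell types (rows) in the 12 libraries (columns), coloured by log2(RPKM + 1). Ly6a, Ly6c1 and Ly6g brighten from heterozygous to generation 4 crypts, where the neutrophil genes S100a8, S100a9, Csf3r and Cxcr2 stay at or below 0.153.

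Ly6a is used as a marker of regenerating crypt epithelium, so 23 other genes reported to mark that state were read. In null G4 crypts 5 of the 12 tested rose and none fell, with a median difference of 0.65 against 0.36 for all genes. They were the annexins Anxa1, Anxa3 and Anxa8, the gap junction protein Gja1 and the interleukin receptor antagonist Il1rn. Anxa1, which dampens inflammation, was at 9.05 and 9.04 in heterozygous crypts, 27.1 and 33.5 in null G4 crypts and 21.9 and 21.0 in reactivated crypts (null G4 difference 1.63, limma, adjusted p = 0.0035). Anxa8 differed by 1.60 (adjusted p = 0.020), Anxa3 by 1.20 (0.024) and Gja1 by 0.87 (0.027). Gja1 was at 0.658 and 0.400 in heterozygous and 1.18 to 1.84 in generation 4 crypts, so it entered the test only through the libraries where it was high, and its place among the 5 carries no weight. Anxa8, Anxa3, Gja1 and Il1rn (1.07, 0.033) did not pass under either scaling, and Anxa1, Anxa3 and Gja1 did not pass with a sex term. Anxa3 and Gja1 also lost their calls without heterozygous replicate 2 (1.08 and 0.75), without null G4 replicate 1 (1.29 and 0.90) and without null G4 replicate 2 (1.11 and 0.84), and Il1rn without either heterozygous library (1.13 and 1.01) or null G4 replicate 2 (0.96). In reactivated against heterozygous crypts 1 of 12 passed, Anxa1 (1.16), which lost its call with quantile normalization (0.83), with no filter, with a sex term, without either heterozygous library (both 1.16) and without reactivated replicate 1 (1.13). With a sex term 2 others passed, Anxa8 and Il1rn. Other markers of that state were nearly absent, with Clu at most 0.174 in any library and Spp1 at most 0.0415.

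Ly6 genes, Ly6a and Ly6e among them, are known to be induced by interferon. Of 18 tested genes of interferon ligands, receptors and signalling, 3 rose in null G4 crypts and none fell, with a median difference of 0.45 against 0.36. They were Socs3, a feedback inhibitor of cytokine receptors (1.50, limma, adjusted p = 0.0013), and the transcription factors Irf1 (1.26, 0.019) and Stat3 (0.85, 0.031). Irf1 was at 12.4 and 15.4 in heterozygous crypts, 32.8 and 36.3 in null G4 crypts and 34.6 and 28.8 in reactivated crypts. In reactivated crypts 2 of 18 passed, Socs3 (1.16) and Irf1 (1.14). With no filter both calls were lost. The Socs3 call was also lost with median scaling (0.95), and that of Irf1 with a sex term (1.01) and without any 1 library (0.99 to 1.28) but reactivated replicate 2. In null G4 crypts Irf1 and Stat3 did not pass with a sex term, and Stat3 did not pass under either scaling. Irf1 also lost its call without heterozygous replicate 1 (1.11) and either null G4 library (1.33 and 1.19), and Stat3 without any 1 of the 4 heterozygous and null G4 libraries (0.80 to 0.90). Ifng, the gene of interferon gamma, was at most 0.121 in crypts. Of 27 tested genes that build or attach GPI anchors none passed in either direction (median difference 0.41), the nearest being Piga and Pigf with 0.64 and 1.02 (adjusted p = 0.051 for each).

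The genes whose crypt profile was nearest to that of Ly6a were found by centring each gene's log2(RPKM + 1) on its own mean over the 6 crypt libraries and taking the root mean square of the difference from Ly6a. Upp1, a uridine phosphorylase, was nearest at 0.11, and Ly6c1 came next at 0.15. They were followed by H2-DMa (0.24) and H2-DMb1 (0.24), which load peptides onto MHC class II, by Nos2 (0.30), the inducible nitric oxide synthase, and by Psmb8 (0.36), a subunit of the immunoproteasome. Upp1 was at 3.36 and 4.73 in heterozygous crypts, 50.5 and 59.9 in null G4 crypts and 41.8 and 45.9 in reactivated crypts. Nos2 was at 0.240 and 0.549, 9.60 and 10.0, and 7.36 and 7.50. Ly6g was at a distance of 0.61 with 25 other genes nearer, and Ly6e at 1.14. The measure is over 6 libraries that form a low pair and a high group of 4, so any gene with a like difference scores well.

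**Figure D5:**
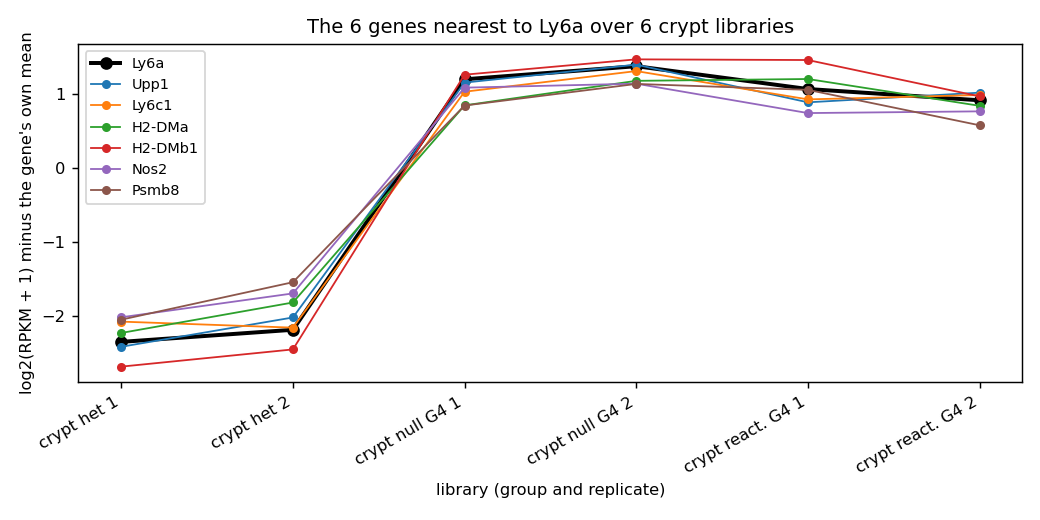
Centred log2(RPKM + 1) of Ly6a (black) and of the 6 genes nearest to it in the 6 crypt libraries, where lines only join the points of a gene. All 7 profiles are low in the heterozygous pair and high in the 4 generation 4 libraries, with root mean square differences from Ly6a of 0.11 (Upp1) to 0.36 (Psmb8).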

How the data were processed

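The authors deposited 1 table of RPKM values (28793 genes, 12 libraries). Per the labels' protocols, RNA came from Qiagen RNeasy Mini columns and TruSeq RNA was the library kit. Per the submitters' processing notes, STAR 2.3.0e and mm10 were used, with roles not stated. The sources used here do not give the counting tool, strand setting or annotation. The table lists 25686 genes for sorted and 27658 for unsorted libraries. Low RPKM values of crypts were whole multiples of 1 read (90.3% to 91.3% within 0.05 reads), implying 75.0 to 103.1 (in units of 1e6) reads. In 5 of 6 sorted libraries they were not (34.5% to 58.0%), so their depth is uncertain.

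Values were taken as log2(RPKM + 1), and fold changes on this scale understate those of low genes. Genes that reached RPKM 1 in at least 3 sorted or 2 unsorted libraries entered limma 3.58.1 under R 4.3.3 (empirical Bayes with trend, two-sided, Benjamini-Hochberg over all genes tested, threshold 0.05). The 6 sorted libraries were fitted together, as were the 6 unsorted ones. The procedure was tested on simulated data. The members and gene lists were chosen with earlier results of these data known. Named genes were the members, Tert, relatives with a group mean of RPKM 1 or more, the 6 genes nearest to Ly6a, and up to 4 genes of smallest p of a list. Il1rn and marker genes named for their level were added after values were seen. A few listed genes are not reported here and were left out of the counts. Alternatives were a pseudocount of 0.1, 2 other filters, 2 scalings, a replicate block, a sex term, fitting 2 groups only and leaving out each library. Sequences were read from GENCODE M21 transcripts and RefSeq with Biopython 1.88, and values with Python 3.11.15 and pandas 2.3.3.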

Additional observations from a re-analysis of the deposited data

Results flagged for a closer look

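Ly6a differed in direction between sorted and unsorted libraries. In each null G3 sorted library it was below every heterozygous sorted library, as were 12.6% of all genes tested (log2 difference -2.04, median of all genes -0.46, and -0.62 without null G3 replicate 1). In each null G4 crypt library it was above every heterozygous crypt library, as were 74.7% of all genes tested (3.55, median of all genes 0.36). The difference between these effects was not tested, since the values were known when the gene was chosen, and generation, cell selection, normalization and, in crypts, sex differ between the comparisons and cannot be told apart.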

How the results depend on the processing

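Counts of genes called are given first. In sorted cells the count was 0 under every setting. In null G4 against heterozygous crypts 636 genes were called (570 higher), and 21 with no filter, 2134 with the stricter filter, 237 with quantile normalization (135 higher), 322 with median scaling (147 higher), 69 with a sex term, 5804 with 2 groups only, and 176 to 5693 when each library was left out. In reactivated against null G4 the count of 3 became 0, 1 and 0 with no filter, the stricter filter and quantile normalization, 6 with a sex term, 8 with 2 groups only, and 4 to 184 without 1 library. In reactivated against heterozygous the 146 became 22 with no filter, 88 and 94 with quantile normalization and median scaling, and 120 to 2298 without 1 library. The replicate numbers did not pair the libraries (correlations of deviations from -0.18 to 0.22), and with a replicate block the counts were 0, 1317, 9 and 264.

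The Ly6a difference in null G4 crypts was 3.10, 3.19 and 3.40 with quantile normalization, median scaling and a sex term, in reactivated against heterozygous 2.90 and 3.04 with the scalings, and in reactivated against null G4 -0.15 with median scaling. Relatives near 0 changed sign in null G4 crypts. For quantile normalization, median scaling and the sex term, 9030619P08Rik gave -0.092, -0.19 and -0.23 and Plaur -0.14, -0.34 and -0.52. Lynx1 gave -0.12 and -0.11 with median scaling and the sex term. For 2010109I03Rik the value was 1.05 with the sex term and -0.73 to 0.15 (without heterozygous replicate 2) when each library was left out, and for Plaur it was -0.058 (without null G4 replicate 1) to 0.096. With no filter none of the 11 genes named as called from the lists passed. The cause of these changes was not tested. With 2 libraries a group, depth does not limit Ly6a or Ly6e, but it does limit Ly6d.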
